A study of Homo sapiens with 6 samples.

Results

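The immediate-early genes of the AP-1 and EGR families were followed in colorectal cancer cells that lost the nuclear pore protein TPR while the export receptor CRM1 was blocked. The members were listed by family, with earlier results of these data known. They were 10 of the 58051 genes in the count table: FOS, FOSB, FOSL1 and FOSL2, JUN, JUNB and JUND, and EGR1, EGR2 and EGR3. Of these, 9 were among the 16974 genes tested, and EGR3 was too low in most libraries to be tested. FOS RNA was higher with auxin in each of the 3 replicate pairs, and JUNB and JUN RNA was lower in each of them. None of the 9 passed the test when replicate number was left out of the fit. In a fit that also held treatment, 7 of the 9 differed by replicate number, beside 33.8% of all tested genes.

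Immediate-early genes are transcribed within minutes of a growth factor or stress signal, without new protein synthesis, and their mRNAs are short-lived. FOS and JUN family proteins pair through leucine zippers to form AP-1, which binds the TGACTCA element, whereas EGR proteins are zinc finger factors that bind GC-rich sites. In epithelial cells both families are known as targets of the EGF receptor, RAS and ERK pathway, which acts on their promoters in part through SRF and its ternary complex partners at the CArG box, and through CREB or ATF factors at elements holding TGACGT.

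The cells were DLD-1, a human colorectal adenocarcinoma line, in which CRISPR/Cas9 had placed an auxin-inducible degron (AID) and the NeonGreen fluorophore on both copies of TPR, and had put TIR1, the plant ubiquitin ligase subunit that recognises the degron, behind RCC1 and an infra-red fluorophore at the RCC1 locus. All 6 cultures received 200 nM Leptomycin B (LMB), which blocks CRM1-dependent export, for 3 h. The LMB group (n = 3) received nothing more, and the LMB+auxin group (n = 3) also received 1 mM auxin for the last 2 h, from 1 h after LMB. Cultures without LMB, and cultures with auxin alone, were not analysed here, so each level below is a level under LMB, and an effect of auxin itself cannot be told apart from that of TPR loss. The cells came from an edited line selected as clones. Without replicate number in the fit, p-values rest on the spread between these 3 samples per group. With replicate number as a block, they rest on the spread of the differences within replicate pairs. In the edgeR fits this spread is estimated with the help of the other tested genes, so it can be narrower than the spread of a gene's own pairs. The SE given with edgeR is the absolute log2 change divided by the square root of the F value of its test.

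Each library held between 28261903 and 35992425 counted reads, and levels are given as CPM, counts relative to library size, scaled by the trimmed mean of M-values (TMM), which makes libraries comparable for one gene. Colon epithelial markers were present at a summed level of 7773 to 7824 CPM with LMB and of 7615 to 8225 CPM with LMB+auxin, led by the keratins KRT8 and KRT18, and 9 of the 12 had a mean above 1 CPM. CDX1, LGALS4 and GPA33, which also mark colon epithelium, were at or near 0. The 10 markers of blood, stromal, endothelial and muscle cells summed to 12.9 to 13.3 CPM with LMB and 10.6 to 14.2 CPM with LMB+auxin. Of the tested markers, CDH17, CDX2 and KRT20 had the largest fold changes among the epithelial ones, at log2 0.12, 0.08 and 0.07, and CD68, VWF and ACTA2 among the others, at −0.18, −0.06 and −0.01, and none passed the test in either fit described below. TPR RNA was 166 ± 12.02 CPM with LMB and 187 ± 3.88 CPM with LMB+auxin (mean ± SD, n = 3), with a log2 change of 0.17 (adjusted p = 0.0133 with the replicate block, edgeR), which is no check of the degron because the protein, not the RNA, is degraded.

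The promoters of FOS, JUNB, EGR1 and EGR2 are shown because these members are among those that carry the results on treatment and replicate number below. RefSeq starts on GRCh38.p14, from 250 bases before to 50 after the start, were read for 8 members. FOSL1 had no start there, and EGR3 was left out of this search. EGR2 has several starts, of which the third is shown, and the others held neither TGACGT nor a CArG box. A member counts as holding a motif if any of its starts does, whereas the shares of all promoters count each promoter by itself. TGACGT, searched on both strands, stood in 6 of the 8 members' promoters, beside 7.97% of the 34796 distinct promoters of that length. It began 64 bases before the FOS start, 60 before FOSB, 66 before FOSL2 and 55 before the third EGR2 start, EGR1 held it at 136 and 67 bases, and JUND held 3 matches, 2 of them overlapping. The CArG box, searched by its usual consensus on both strands, stood in the promoters of EGR1, at 105 and 83 bases before the start, and EGR2, at 71 bases, beside 1.3% of all promoters. The windows printed lie at chr14:75278578-75278877 on the plus strand (FOS), chr19:12791236-12791535 on the plus strand (JUNB), chr5:138465229-138465528 on the plus strand (EGR1) and chr10:62816317-62816616 on the minus strand (EGR2). Capitals mark TGACGT or its reverse complement and the CArG box.
FOS: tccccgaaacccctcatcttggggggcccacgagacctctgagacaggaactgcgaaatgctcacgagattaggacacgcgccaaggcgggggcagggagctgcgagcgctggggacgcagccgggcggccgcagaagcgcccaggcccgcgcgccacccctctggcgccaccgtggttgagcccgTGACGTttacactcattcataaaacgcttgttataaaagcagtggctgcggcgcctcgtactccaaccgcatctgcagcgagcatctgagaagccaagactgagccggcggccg
JUNB: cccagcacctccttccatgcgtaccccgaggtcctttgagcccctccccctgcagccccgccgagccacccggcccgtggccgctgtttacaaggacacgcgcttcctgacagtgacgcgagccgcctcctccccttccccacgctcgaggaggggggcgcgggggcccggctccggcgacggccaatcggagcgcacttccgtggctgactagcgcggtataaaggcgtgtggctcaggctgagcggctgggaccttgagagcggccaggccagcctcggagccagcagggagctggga
EGR1: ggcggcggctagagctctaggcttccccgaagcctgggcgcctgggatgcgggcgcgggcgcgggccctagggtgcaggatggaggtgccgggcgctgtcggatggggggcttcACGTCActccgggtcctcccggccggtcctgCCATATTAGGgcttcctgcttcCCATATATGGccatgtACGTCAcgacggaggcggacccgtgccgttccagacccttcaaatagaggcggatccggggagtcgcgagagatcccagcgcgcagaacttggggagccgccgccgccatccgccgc
EGR2: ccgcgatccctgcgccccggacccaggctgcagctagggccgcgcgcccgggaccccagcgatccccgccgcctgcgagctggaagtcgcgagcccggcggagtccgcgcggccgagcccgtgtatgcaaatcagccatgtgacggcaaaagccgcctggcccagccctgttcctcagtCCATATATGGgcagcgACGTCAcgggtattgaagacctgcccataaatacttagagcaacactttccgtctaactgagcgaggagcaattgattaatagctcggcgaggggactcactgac

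In these letters FOS holds 1 TGACGT and no CArG box within the window, JUNB holds neither, and EGR1 holds a pair of each. FOS, FOSB and JUNB also hold TATAAA, at 33, 30 and 31 bases before the start, which 11.58% of all promoters do. These matches are letters in a window and not measured sites of binding.

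The 3′ untranslated regions were read for ATTTA, the pentamer of AU-rich elements that mark short-lived mRNAs, as a feature that played no part in the choice of members. All 10 members had at least 1 ATTTA in the 3′ UTR of their canonical GENCODE 44 transcript, as did 68.2% of 19092 protein-coding genes. FOSL2 held 9 copies over 4869 bases, FOS 5 over 806 bases, FOSB and EGR3 3 each, JUN 3, JUNB 2 and EGR2 2, and FOSL1, JUND and EGR1 1 each. The longer form TTATTTATT stood in FOS and FOSL2, beside 8.6% of those genes. A window of 29 bases with most copies is given for the members that passed the test and for EGR1, with ATTTA in capitals.
FOS: tgtgtttttaATTTATTTAttaagatgga
JUN: tccagaaaggatATTTAagaaaatacaat
JUNB: atatatttgtgtATTTAacagggagggga
EGR1: ctgaaaatgtaaATTTAtaaatatattca

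FOS has 2 overlapping copies in its window, and JUN, JUNB and EGR1 have 1 each. On GRCh38 the FOS window lies at chr14:75282058-75282086 (plus strand), the JUN window at chr1:58781336-58781364 (minus), the JUNB window at chr19:12793060-12793088 (plus) and the EGR1 window at chr5:138469064-138469092 (plus).

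Levels between genes were compared per kilobase of merged exons. EGR1 had the highest mean over the 6 libraries at 34.8 ± 16.2 CPM per kb (SD), followed by JUNB at 23.9 ± 8.03, JUND at 13.1 ± 1.46 and FOSL2 at 9.07 ± 0.427. FOS, JUN and FOSL1 came next at 6.21 ± 2.67, 5.63 ± 0.985 and 4.75 ± 0.399 CPM per kb, and EGR2, FOSB and EGR3 stood last at 0.682 ± 0.346, 0.481 ± 0.124 and 0.273 ± 0.156. The ranges of neighbours in this order overlapped except between JUND and FOSL2 and between FOSL1 and EGR2. The low genes rested on few reads, with 27 to 83 per library for EGR3, 39 to 152 for EGR2 and 63 to 117 for FOSB.

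The comparison of LMB+auxin with LMB asks which RNAs change within 2 h of TPR loss when CRM1 is already blocked. Without the replicate number in the fit, none of the 9 tested members was called at an adjusted p under 0.05 with a fold of at least 1.3 either way (edgeR). None had an unadjusted p under 0.05 either. Across all tested genes 1 was called, which is 0.00589%, and 741 had an unadjusted p under 0.05. DESeq2 and limma-voom without the block likewise called 0 members. With the replicate number as a block, FOS was called higher, as were 0.300% of all tested genes, and no member was called lower, beside 0.890% of all genes. At an adjusted p under 0.05 whatever the fold, 1 of the 9 was higher (FOS) and 2 were lower (JUNB and JUN), beside 1.12% and 3.27% of all tested genes. The median log2 change of the 9 members with the block was −0.04, beside −0.0035 over all tested genes. No member had groups that did not overlap, beside 4.89% of tested genes with all LMB+auxin libraries above the LMB libraries and 6.63% with them all below. Only 9 members were tested, and whether their shares differ from those of other genes was not tested.

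**Figure D1:**
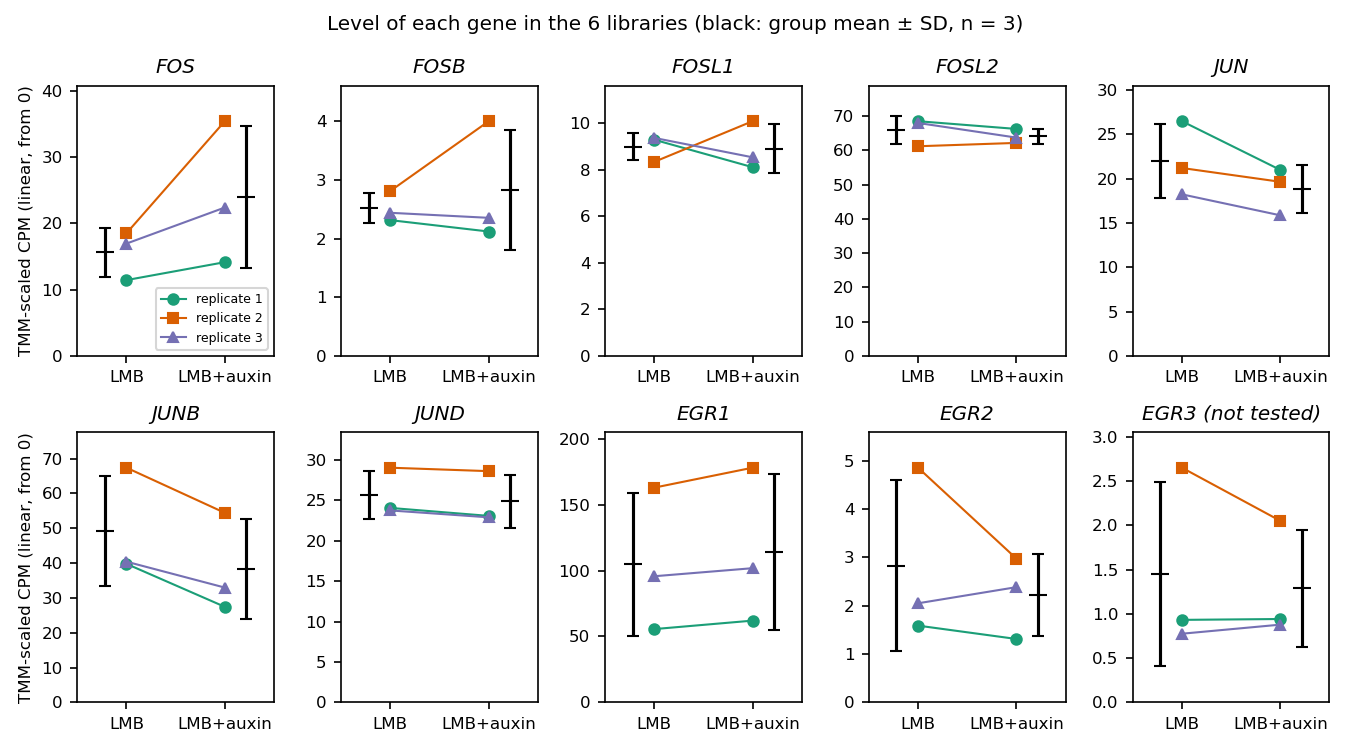
TMM-scaled CPM (y axis, linear, from 0) of the 10 genes in the LMB and LMB+auxin libraries (x axis), with a line joining libraries of the same replicate number and the group mean ± SD (n = 3) in black. FOS rises along all 3 lines, JUNB and JUN fall along all 3, and replicate 2 is the highest library of both groups for FOS, FOSB, JUNB, JUND, EGR1, EGR2 and EGR3.

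FOS, the founding partner of JUN in AP-1, was measured at 11.4, 18.5 and 16.9 CPM in LMB replicates 1, 2 and 3 and at 14.1, 35.4 and 22.4 CPM in LMB+auxin replicates 1, 2 and 3. The groups overlapped, since LMB+auxin replicate 1 lay below LMB replicates 2 and 3, but each LMB+auxin library was above the LMB library of its own number. The group means were 15.6 ± 3.71 and 24.0 ± 10.7 CPM. Within pairs FOS was 1.24-fold, 1.91-fold and 1.32-fold higher, each beyond counting error, with log2 differences of 0.31 (counting SE 0.106), 0.94 (0.0749) and 0.40 (0.0795). The log2 fold change was 0.61 (SE 0.319, adjusted p = 0.954) without the block and 0.58 (SE 0.0797, adjusted p = 1.17e-06) with it (edgeR). Among the 16974 tested genes 88 had a larger absolute blocked change, so FOS was 89th. Without replicate 2 the blocked change was 0.37 (adjusted p = 0.0144), just under the fold of 1.3 needed for a call, and DESeq2 with the block gave 0.56 (SE 0.192, adjusted p = 0.185). In bulk RNA, a change in the number of cells that express a gene and a change in RNA per cell cannot be told apart. FOS lies on chromosome 14 at 75278826 to 75282230 and has 4 exons in its canonical transcript.

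FOSB, the FOS paralogue whose truncated form builds up on repeated stimulation, was at 2.31, 2.81 and 2.44 CPM with LMB and at 2.12, 4.001 and 2.35 CPM with LMB+auxin. It was higher with auxin in replicate 2 alone, where the fold was 1.42, and its blocked log2 change of 0.15 (SE 0.149, adjusted p = 0.614, edgeR) did not pass. FOSL1, or FRA1, a later target of ERK signalling that is often high in invasive tumours, ran from 8.11 to 10.1 CPM over the 6 libraries, with group means of 9.001 ± 0.574 and 8.91 ± 1.04 CPM. FOSL2, or FRA2, ran from 61.2 to 68.5 CPM with means of 65.9 ± 4.08 and 64.0 ± 2.06 CPM. Their blocked log2 changes were −0.02 (SE 0.0917) and −0.04 (SE 0.0519), each smaller than its SE.

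JUN, the AP-1 subunit that can act as a homodimer and is switched by JNK, was at 26.5, 21.2 and 18.2 CPM with LMB and at 21.0, 19.6 and 15.9 CPM with LMB+auxin. The groups overlapped, but JUN was lower with auxin in all 3 pairs, at 0.793, 0.927 and 0.870 of the LMB level. The blocked log2 change was −0.22 (SE 0.0687, adjusted p = 0.0470, edgeR), close to the threshold, and it passed in 3 of the 8 fits with the block. DESeq2 with the block gave an adjusted p of 0.438, and leaving out any replicate number gave 0.0932 to 0.347. JUN is a single-exon gene on chromosome 1 at 58776845 to 58784048 on the minus strand.

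JUNB, which dampens JUN activity in several settings and is itself a strong immediate-early gene, was at 39.8, 67.4 and 40.4 CPM with LMB and at 27.4, 54.4 and 33.0 CPM with LMB+auxin. The 2 libraries of replicate 2 were the highest of all 6, so the groups overlapped, yet JUNB was at 0.690, 0.808 and 0.816 of the LMB level within pairs, each beyond counting error. The log2 change was −0.36 (SE 0.292, adjusted p = 0.954) without the block and −0.37 (SE 0.0581, adjusted p = 1.70e-06) with it (edgeR), just under the fold of 1.3. All 8 fits with the block gave an adjusted p under 0.05 for JUNB, DESeq2 among them (0.00114), and 3 of the 8 also passed the fold. JUNB is a single-exon gene on chromosome 19 at 12791486 to 12793315, and it shares 259 of its 1830 exonic bases with HOOK2 on the other strand. HOOK2 was at 37.1, 46.0 and 33.2 CPM with LMB and 30.8, 41.7 and 31.8 CPM with LMB+auxin, lower in all 3 pairs, with a blocked log2 change of −0.16 (SE 0.0595, adjusted p = 0.113). Whether strand was used in counting is not given in the sources used here, and the part of HOOK2 reads in the JUNB change was not tested.

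JUND, the JUN family member that is expressed most steadily, was at 24.0, 29.02 and 23.7 CPM with LMB and at 23.1, 28.6 and 22.9 CPM with LMB+auxin. It was at 0.959, 0.985 and 0.964 of the LMB level within pairs, each within counting error, and its blocked log2 change was −0.04 (SE 0.0641, adjusted p = 0.738, edgeR). All 3 JUN genes thus had values below 0, of which JUN and JUNB passed the test with the block.

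**Figure D2:**
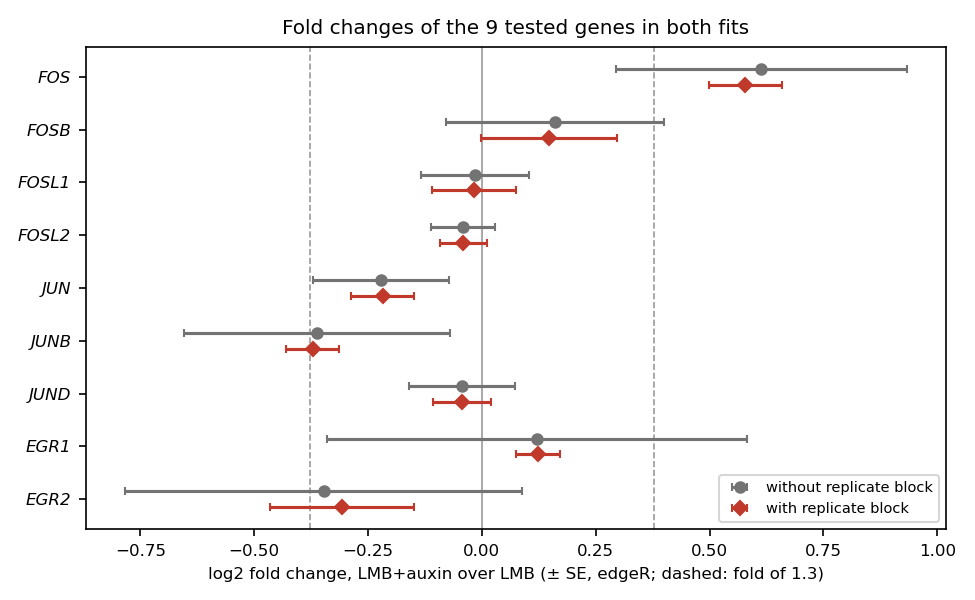
Log2 fold change of LMB+auxin over LMB (x axis, ± SE, edgeR) for the 9 tested genes, without the replicate block (grey circles) and with it (red diamonds), and with the fold of 1.3 dashed. The points of both fits lie close together while the bars shrink with the block, for FOS from 0.319 to 0.0797, and FOS is the one gene beyond the dashed lines with an adjusted p under 0.05.

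Because FOS and JUNB products meet in the same dimers, their RNA levels were set against each other by library, a ratio chosen after the values were seen and given with no test. FOS over JUNB, in CPM and not per length, was 0.288, 0.275 and 0.419 with LMB and 0.515, 0.651 and 0.679 with LMB+auxin. The groups did not overlap, and the mean rose from 0.327 ± 0.0801 to 0.615 ± 0.0875 (SD, n = 3). FOS over JUN went from a mean of 0.745 ± 0.273 to 1.296 ± 0.573, and FOS over JUND from 0.609 ± 0.122 to 0.943 ± 0.314. Both of these ratios overlapped between the groups, although each was higher with auxin in all 3 pairs.

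**Figure D3:**
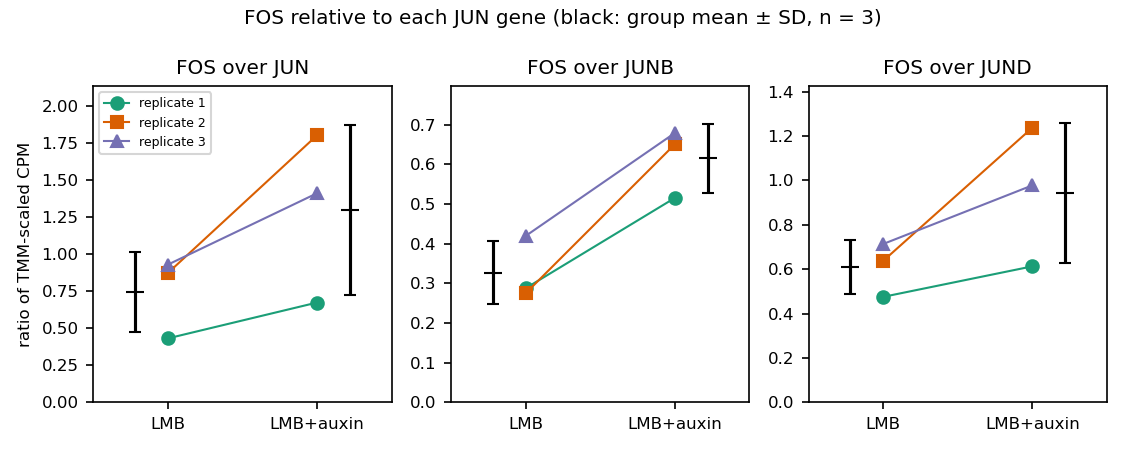
Ratio of FOS to JUN, JUNB and JUND in TMM-scaled CPM (y axis, linear, from 0) in the LMB and LMB+auxin libraries (x axis), with lines joining the same replicate number and the group mean ± SD (n = 3) in black. All 9 lines rise, and for JUNB the LMB libraries (0.275 to 0.419) lie below the LMB+auxin libraries (0.515 to 0.679).

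EGR1, a zinc finger factor induced through SRF sites that serves as a common read-out of ERK activity, was at 55.6, 163 and 95.7 CPM with LMB and at 62.0, 178 and 102 CPM with LMB+auxin. Its libraries ordered by replicate number and not by treatment, with replicate 1 lowest and replicate 2 highest in both groups. Within pairs EGR1 was 1.12-fold, 1.09-fold and 1.06-fold higher with auxin, each beyond counting error but small. The log2 change was 0.12 (SE 0.462) without the block and 0.12 (SE 0.0488, adjusted p = 0.129, edgeR) with it, so it did not pass. EGR1 lies on chromosome 5 at 138465479 to 138469303 and has 2 exons.

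EGR2, best known for its part in myelination and in lymphocyte tolerance, was at 1.59, 4.86 and 2.05 CPM with LMB and at 1.31, 2.98 and 2.39 CPM with LMB+auxin. It was lower in 2 pairs and higher in 1, with a blocked log2 change of −0.31 (SE 0.157, adjusted p = 0.258, edgeR). EGR3, which works beside EGR2 in lymphocytes, was at 0.933, 2.65 and 0.776 CPM with LMB and at 0.943, 2.05 and 0.879 CPM with LMB+auxin, each pair within counting error. It exceeded 1 CPM in replicate 2 of each group alone, so it was left out of the tested genes, and a change of EGR3 with auxin was not tested.

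The replicate number was associated with the members' levels more widely than auxin was. In the fit with group and replicate number, 7 of the 9 tested members differed by replicate number at an adjusted p under 0.05 (edgeR), and these were FOS, FOSB, JUN, JUNB, JUND, EGR1 and EGR2. Across all tested genes 5733 did, which is 33.8%. EGR1 had the largest F of all 16974 tested genes (326, on 2 degrees of freedom), JUNB was 51st (91.6), FOS 128th (54.6) and EGR2 450th (27.4). FOSL1 (adjusted p = 0.843) and FOSL2 (adjusted p = 0.229) did not pass.

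The order of the replicates was not the same for all members. EGR1 in replicate 2 was 2.93 times replicate 1 with LMB and 2.87 times with LMB+auxin, EGR2 was 3.06 and 2.27 times, and JUNB was 1.69 and 1.98 times. EGR3, which was not tested, was 2.84 and 2.18 times. FOS in replicate 2 was 1.62 times replicate 1 with LMB and 2.504 times with LMB+auxin. JUN took another order, with replicate 1 highest and replicate 3 lowest in both groups, and replicate 3 was at 0.688 and 0.756 of replicate 1. What the numbers stand for (a day, a passage or a batch of cells) is not given in the sources used here, and its part in these values was not tested.

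**Figure D4:**
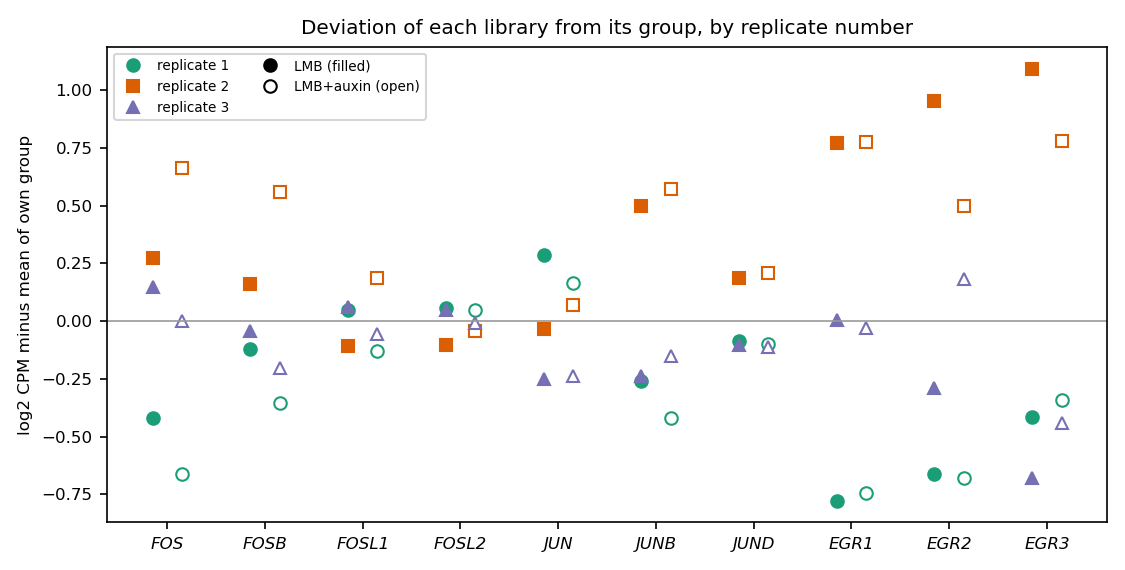
Log2 CPM of each library minus the mean of its own group (y axis) for the 10 genes (x axis), with replicate number by colour and shape, LMB filled and LMB+auxin open. Replicate 2 stands above 0 in both groups for FOS, FOSB, JUNB, JUND, EGR1, EGR2 and EGR3, JUN has replicate 1 highest, and the FOSL2 points stay close to 0.

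The genes whose levels followed a member most closely were named by the Pearson correlation of log2 CPM over the 6 libraries, as a description in which treatment, replicate number and library are shared by all points. For EGR1 these were MYO1D (r = 0.999), SWAP70 (0.999), FCHSD2 (0.999), YBX1 (0.999) and MYO10 (0.998). For FOS they were HNRNPD (0.996), ZC3H7A (0.994), CTNNB1 (0.992), TXNRD3 (0.992) and PODXL (0.991). For JUN they were CTSL (0.994), LINC00663 (0.988), PHF1 (0.985), SEC31B (0.984) and MBD6 (0.979). Among the members, EGR1 was closest to EGR2 (0.897) and FOS (0.844) and ran opposite to FOSL2 (−0.862), and FOS was close to FOSB (0.843) and ran opposite to FOSL2 (−0.724) and JUN (−0.582). The spans of the like genes differed, since HNRNPD went from 47.3 to 63.9 CPM over the same libraries in which FOS went from 11.4 to 35.4 CPM. CTNNB1 went only from 698 to 729 CPM. FOSL2, which ran opposite to EGR1 and FOS, went only from 61.2 to 68.5 CPM.

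The factors that act on these promoters were counted in the fit with the block. In that fit 1.12% of all tested genes rose and 3.27% fell at an adjusted p under 0.05. No gene of this list or the 4 lists after it was called in the edgeR fit without the block on the same tested genes. Of 17 tested genes for SRF, its ternary complex and MRTF partners, the ERK, RSK and JNK kinases and CREB1, 1 fell with the block and none rose. That gene was SRF itself, which was at 57.2, 52.2 and 54.8 CPM with LMB and 44.7, 52.9 and 46.1 CPM with LMB+auxin, with a log2 change of −0.20 (SE 0.0568, adjusted p = 0.0275, edgeR) and a value below LMB in 2 of 3 pairs. The next largest values were those of MAP2K1, which encodes the ERK kinase MEK1, and of the ternary complex factor ELK3, at 0.08 (SE 0.0528) and 0.07 (SE 0.0794). The median log2 change of the list was 0.04, beside −0.0035 over all tested genes.

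Among the other AP-1 partners, 9 of 11 were tested, 1 rose and 3 fell with the block, beside 1.12% and 3.27% of all tested genes. ATF3, a stress-induced factor that pairs with JUN proteins, rose by 0.32 on the log2 scale (SE 0.101, adjusted p = 0.0460, edgeR), from 5.94 to 7.45 CPM. The small MAF genes, which encode bZIP proteins without an activation domain, fell together, with MAFF at −0.34 (SE 0.0691), MAFK at −0.32 (SE 0.0662) and MAFG, named after its value was seen, at −0.19 (SE 0.0583), each lower in all 3 pairs. BATF2 and BATF3 were too low to test, and the list's median was −0.08.

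NAB2, a co-repressor that EGR1 induces and that binds EGR proteins, was called lower with the block. It was at 33.6, 57.9 and 36.7 CPM with LMB and at 25.7, 38.4 and 27.4 CPM with LMB+auxin, lower in all 3 pairs, with a log2 change of −0.47 (SE 0.0601, adjusted p = 2.14e-09, edgeR). Without the block the change was −0.49 (SE 0.226, adjusted p = 0.954). Replicate 2 was again the highest of each group, as for EGR1, while the change with auxin had the other sign. NAB1, the constitutive co-repressor, was at 0.02 (SE 0.0544, adjusted p = 0.852), and EGR4 was not tested. NAB2 was called in all 8 blocked fits.

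The other immediate-early genes split both ways. Of 26 tested among 27, 5 rose and 5 fell at an adjusted p under 0.05 with the block, beside 1.12% and 3.27% of all tested genes, and the median was 0.03. Without the block IER3, KLF6, CCN1 and IER5 each had an adjusted p of 0.954 (edgeR). Those that rose past the fold were IER3 (a log2 change of 0.52, SE 0.0464), KLF6 (0.50, SE 0.0670) and CCN1 (0.47, SE 0.0580), and IER5 fell past it (−0.38, SE 0.0649). IER3, a survival gene, was at 114, 264 and 131 CPM with LMB and 157, 361 and 206 CPM with LMB+auxin, higher in all 3 pairs and highest in replicate 2 of each group, as was FOS. Whether IER3 shares exonic bases with its antisense gene IER3-AS1 was not examined, and a part of IER3-AS1 reads in these values was not tested.

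KLF6, a zinc finger factor, was at 22.1, 33.9 and 29.97 CPM with LMB and 37.7, 49.6 and 34.4 CPM with LMB+auxin, and these groups did not overlap. CCN1, which encodes a matricellular protein and is a target of SRF and YAP, was at 36.2, 25.6 and 43.1 CPM and then 52.4, 35.6 and 56.8 CPM, with replicate 2 lowest in each group. IER5 was at 33.0, 25.2 and 28.3 CPM and then 22.9, 20.3 and 22.9 CPM, without overlap. IER3 and CCN1 were called in all 8 blocked fits, KLF6 in 6 (DESeq2 gave an adjusted p of 0.1504, and without replicate 1 its change was 0.38, under the fold) and IER5 in 5 (its change was under the fold at −0.31 without replicate 1 and at −0.37 by DESeq2 and with RLE scaling). KLF6 was also called without the block when no filter on low counts was used (adjusted p = 0.00235, edgeR).

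Of the listed genes that passed the adjusted p but not the fold, named after their values were seen, SGK1 (0.31) and CSRNP1 (0.20) rose, and MCL1 (−0.35), PHLDA1 (−0.32), ZFP36 (−0.32) and IER2 (−0.22) fell on the log2 scale. MCL1 is an anti-apoptotic BCL2 relative, and ZFP36 encodes tristetraprolin, which binds AU-rich elements and speeds the decay of the mRNAs that carry them. Each was on the same side in all 3 pairs.

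Of 15 AP-1 target genes, 8 could be tested, 3 rose and none fell with the block, beside 1.12% and 3.27% of all tested genes, and the median was 0.09. All 3 encode ligands of the EGF receptor. HBEGF was at 9.95, 10.4 and 9.76 CPM with LMB and at 11.8, 14.6 and 13.6 CPM with LMB+auxin, groups that did not overlap, with a log2 change of 0.42 (SE 0.0820, adjusted p = 0.000250, edgeR) that was called. Without the block its adjusted p was 0.954. AREG and EREG rose by 0.21 (SE 0.0466) and 0.17 (SE 0.0427), under the fold, and in all 3 pairs. HBEGF was called in 5 of the 8 blocked fits, the exceptions being DESeq2 (adjusted p = 0.101) and the fits without replicate 2 (a change of 0.38, under the fold) and without replicate 3 (adjusted p = 0.0567). The 6 MMP genes of the list and CXCL8 were too low to test.

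**Figure D5:**
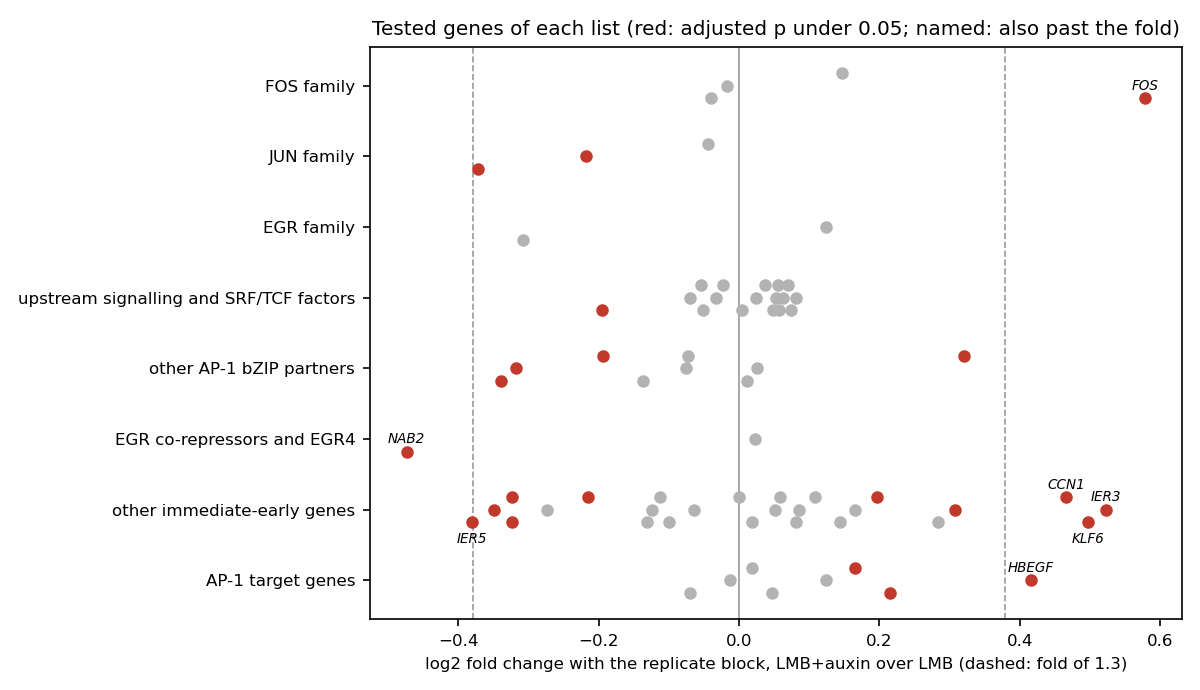
Log2 fold change of LMB+auxin over LMB with the replicate block (x axis) for each tested gene of the 8 lists (y axis), red where the adjusted p was under 0.05 and named where the fold of 1.3 (dashed) was passed as well. FOS, IER3, KLF6, CCN1 and HBEGF are named on the right, NAB2 and IER5 on the left, and the upstream factors lie close to 0 apart from SRF at −0.20.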

How the data were processed

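Total RNA depleted of ribosomal RNA was sequenced from 6 cultures of one edited DLD-1 line (LMB, 3; LMB+auxin, 3). The authors deposited whole-number read counts per Ensembl gene (GRCh38), with CASAVA 1.8.2, STAR 2.6.1c and featureCounts 1.5.2 named in the submitters' processing notes; the strand setting is not given in the sources used here. Symbols came from GENCODE 44 for 98.1% of identifiers.

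Counts were tested with edgeR 4.0.16 (quasi-likelihood, robust, TMM, R 4.3.3) on the 16974 genes above 1 CPM in at least 3 of 6 libraries, with Benjamini-Hochberg adjustment over all of them. Genes were called at an adjusted p under 0.05 and a fold of at least 1.3 either way. The labels give both groups the numbers 1, 2 and 3. Deviations from the group means correlated at 0.531, 0.691 and 0.273 between libraries of one number. Between libraries of different numbers the correlations ran from −0.573 to 0.146. From these same data the numbers were taken to pair the samples, and the fit with a replicate block is given beside the fit without. DESeq2 1.42.0, limma 3.58.1 (voom), other scalings and filters and leaving out libraries were alternatives. Scripts were tested on simulated data. CPM per kb used merged exon lengths.

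Named were all members, of each other list the genes called in either fit and the 3 with the largest change without the block, and the 5 genes most like FOS, JUN and EGR1. The members and lists were chosen with earlier results of these data known.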

Additional observations from a re-analysis of the deposited data

How the results depend on the processing

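Without the replicate block no member was called under any alternative. The number of members called was 1 with the replicate block, 1 with the block and RLE scaling, 1 with the block and no filter, 2 with the block and library size alone, and 1 to 2 when a replicate number was left out with the block. JUNB was the second gene where 2 were called, without replicate 2 JUNB was called and FOS was not, and DESeq2 with the block called 0 members. The scalings and filters tried together with the block were chosen after seeing the data. Over all genes, 1 was called without the block and 202 with it, 11 with DESeq2, 31 with DESeq2 and the block, 0 with library size alone, 39 with no filter, 0 to 5 without one library, 133 to 158 (134 without replicate 3) with the block and without one replicate number, and 253, 197 and 211 with the block and library size alone, RLE scaling or no filter. Each of the 9 tested members had 21 alternatives. FOS, FOSL2, JUN and JUNB kept their sign in all of these. When a single library was left out without the block, FOSB ran from −0.17 to 0.33, FOSL1 from −0.111 to 0.0473, JUND from −0.16 to 0.0635, EGR1 from −0.36 to 0.60 and EGR2 from −0.62 to 0.29 on the log2 scale. With the block, leaving out replicate 2 gave −0.0807 for FOSB and 0.0304 for EGR2. Leaving out replicates 1 or 3 with the block gave 0.0627 or 0.0505 for FOSL1. The signs of all 5 genes thus turned without the block. With it those of FOSB, EGR2 and FOSL1 turned, whereas JUND (−0.0563 to −0.0349) and EGR1 (0.109 to 0.146) kept theirs. None of these values passed the test. FOS fell to 0.22 without LMB+auxin replicate 2, and JUNB went to −0.06 without LMB replicate 2, and JUN went to −0.07 when LMB replicate 1 was left out and to −0.10 when LMB+auxin replicate 3 was, all in fits with no block. Members differing by replicate number numbered 7 or 8 under each scaling and filter tried. Depth limits EGR2, EGR3 and FOSB most.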
